A study of Homo sapiens with 12 samples.

Results

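The m1A peaks described here name both the coding sequence and the 3′ UTR of the mRNA they lie on, and not the 5′ UTR. N1-methyladenosine (m1A) is a methyl mark on adenine in RNA, and a peak is a stretch of mRNA enriched by an antibody against it. The region names of all annotated transcripts of a peak were pooled, and the peaks were kept whose pooled names were these alone. The rule kept 7892 of 81260 peaks (9.71%), on 4190 of the 10226 genes with any peak (41.0%). They are called boundary peaks below, because the stop codon is the boundary of the regions they name.

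The cells are SNU-668, a human gastric cancer line, grown resistant to erastin, a compound that blocks cystine import and so triggers the iron-dependent cell death called ferroptosis. Both groups carry this resistance and an shRNA: 3 samples received shRNA-ALKBH3 (genotype label "ALKBH3 knockdown") and 3 received shRNA-NC (control, genotype label "WT"). ALKBH3 takes the m1A methyl group off RNA, and the comparison asks how the m1A map differs after its knockdown. The labels give neither the number of shRNA sequences or clones, nor the time after transfection, nor whether replicates are separate cultures. The p-values therefore measure the spread between these samples alone, and that spread may be technical.

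The stop codon ends the open reading frame, where release factors free the new protein and the ribosome leaves the mRNA. The 3′ UTR behind it is not translated and carries sites for microRNAs and RNA-binding proteins that set stability and translation. Most human stop codons lie in the last exon, and alternative splicing or alternative 3′ ends can make the same bases coding in one transcript and untranslated in another. m1A carries a positive charge on the base-pairing face of adenine and blocks Watson-Crick pairing.

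Each immunoprecipitated (IP) sample has its own peak list, so that 1 list is 1 replicate, and the 6 input libraries are used here only as the background of those calls. The lists hold between 4894 and 34691 peaks, give no read counts, and therefore leave depth unknown. Knockdown list 1 stands apart by its length. No list has a boundary peak on ALKBH3, so the knockdown itself was not checked with these peaks. Of 8 epithelial and gastric markers, 5 had a peak and 4 of these a boundary peak, but a peak does not measure expression, so the labelled cell type was not checked further.

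The label of these peaks held in part. In knockdown lists 1 to 3, 80.2%, 74.2% and 74.1% of the boundary peaks had at least 1 transcript that named both regions by itself. In control lists 1 to 3 the shares were 80.5%, 84.4% and 80.1%. These peaks lie across an annotated stop codon or touch both regions of a single transcript, while in the rest the regions came from different isoforms. Every transcript of the peak named both regions in 46.7%, 42.8% and 44.0% of the boundary peaks of the knockdown lists, against 47.2%, 52.7% and 48.1% in the control lists. The share with both regions on 1 transcript averaged 76.1% ± 3.48 in knockdown lists and 81.7% ± 2.41 in control lists (SD, n = 3 each), a difference of −5.53 percentage points that did not pass the test (exact permutation test, two-sided, p = 0.2, adjusted p = 0.625 over 5 comparisons). With 3 lists against 3 the smallest possible p is 0.1, so none of these comparisons could pass. At equal list length, with each list held to its 4894 most enriched peaks, the difference was −10.2 points (exact permutation test, p = 0.1, adjusted p = 0.5).

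Peaks whose regions came from different isoforms were short. Their median length was 75, 75 and 50 nt in knockdown lists and 50 nt in each control list. Boundary peaks with both regions on 1 transcript had medians of 275, 175 and 150 nt in the knockdown lists and 175 nt in each control list. A single calling step of 25 nt made up between 27.5% and 45.0% of the isoform-dependent peaks, and between 3.39% and 8.45% of the others. The isoform-dependent peaks had a higher median log2 enrichment in every list, between 1.60 and 2.29, against 1.17 to 1.96 for the others. The enrichment of a peak is the authors' own log2 fold change, read as IP over input, and is used here only within a list.

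Knockdown lists 1 to 3 held 3683, 999 and 687 boundary peaks, and control lists 1 to 3 held 513, 546 and 1464. Knockdown lists 2 and 3 lie between the control lists, so the groups overlap. The number averaged 1789.7 ± 1647 in knockdown lists and 841 ± 539.8 in control lists (SD, n = 3 each). On the log2 scale the difference was 0.87, a ratio of 1.83, and did not pass the test (exact permutation test, p = 0.5, adjusted p = 0.625). Genes with such a peak numbered 3029, 884 and 639 in knockdown lists, against 479, 514 and 1294 in control lists, a log2 difference of 0.81 (exact permutation test, p = 0.5, adjusted p = 0.625). Without knockdown list 1 the log2 differences were 0.16 for peaks and 0.14 for genes. When each list was held to its 4894 most enriched peaks, the difference in peaks turned to −0.43 and that in genes to −0.45 on the log2 scale, and neither passed the test.

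As a share of their list, boundary peaks were 10.6% (Wilson 95% interval 10.3 to 10.9), 7.65% (7.21 to 8.12) and 8.11% (7.54 to 8.71) in the knockdown lists. The control lists gave 10.2% (9.42 to 11.1), 11.2% (10.3 to 12.1) and 9.68% (9.22 to 10.2). Knockdown lists 2 and 3 lie below every control list and knockdown list 1 lies among them. The means were 8.79% ± 1.60 in knockdown lists and 10.4% ± 0.748 in control lists (SD, n = 3 each), and the difference of −1.56 percentage points did not pass the test (exact permutation test, p = 0.3, adjusted p = 0.625). Without knockdown list 1 the difference was −2.47 points, at equal list length it was −2.57, and among peaks of at least 4-fold enrichment it turned to 0.80. The intervals cover counting error only.

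**Figure D1:**
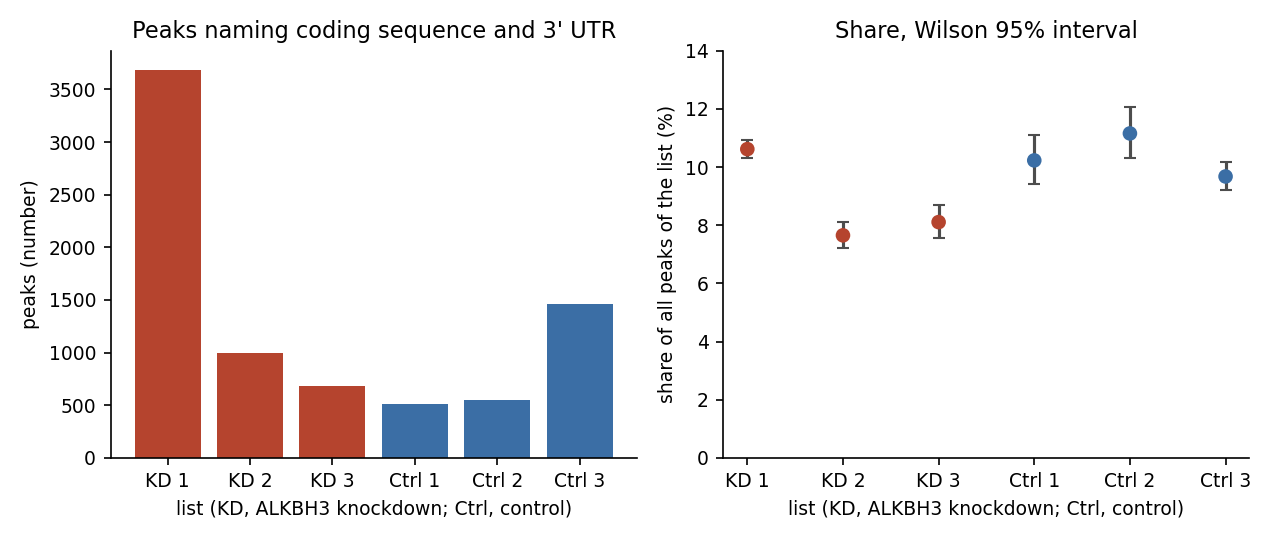
Number of boundary peaks (left, bars) and their share of all peaks in the list (right, percent, points with Wilson 95% intervals) for the 3 ALKBH3 knockdown (KD) and 3 control (Ctrl) lists. Knockdown list 1 holds 3683 peaks, while the shares lie between 7.65% and 11.2%.

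Peaks that name only one of the regions were distributed otherwise. Coding-sequence peaks made up 55.7%, 45.3% and 39.9% of the knockdown lists and 26.0%, 25.3% and 37.7% of the control lists. 3′ UTR peaks made up 19.7%, 39.2% and 44.1% of the knockdown lists and 57.5%, 59.6% and 44.3% of the control lists. The share of boundary peaks thus spanned fewer percentage points between lists than that of either region alone. Longer peaks that also name the 5′ UTR, which the rule leaves out, numbered 503, 33 and 22 in knockdown lists, against 17, 18 and 62 in control lists.

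Boundary peaks were less enriched than peaks of either region alone, in every list. Their median log2 enrichment was 1.91, 2.04 and 1.76 in knockdown lists and 1.26, 1.67 and 1.81 in control lists. For coding-sequence peaks the medians were 1.95, 2.08 and 1.92 in knockdown lists and 1.60, 1.95 and 1.85 in control lists. For 3′ UTR peaks they were 2.18, 2.67 and 2.42 in knockdown lists and 1.64, 2.53 and 2.40 in control lists. The gap to 3′ UTR peaks was the wider one in each list. Isoform-dependent boundary peaks had medians of 2.05, 2.29 and 1.96 in knockdown lists and 1.60, 2.15 and 2.03 in control lists. After rounding, these equalled the coding-sequence median in control list 1 and exceeded it in the other lists. They lay below the 3′ UTR median in every list. Longer peaks meet the rule more readily, and the part of length in these differences was not tested.

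The within-list difference to 3′ UTR peaks averaged −0.57 ± 0.21 on the log2 scale (SD, n = 6 lists, 0 of 6 above 0; exact sign-flip permutation test, p = 0.03125, adjusted p = 0.0375 over 6 comparisons). It was −0.27 among peaks of at least 4-fold enrichment and −0.37 at equal list length, and still passed in both. Both alternatives select peaks by the enrichment that is compared, the second at a level that differs by list. They are therefore no independent check of enrichment differences. The difference to coding-sequence peaks averaged −0.15 ± 0.13 (n = 6 lists, 0 of 6 above 0; exact sign-flip permutation test, p = 0.03125, adjusted p = 0.0375). It was −0.04, −0.04 and −0.16 in knockdown lists and −0.34, −0.28 and −0.04 in control lists. The second difference did not hold among peaks of at least 4-fold enrichment, where it was 0.01, nor at equal list length, where it was −0.08 (exact sign-flip permutation test, p = 0.469). The middle boundary peak ranked at the 44.1st, 39.4th and 35.0th percentile of enrichment of its knockdown list, and at the 31.6th, 26.9th and 38.3rd of its control list.

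**Figure D2:**
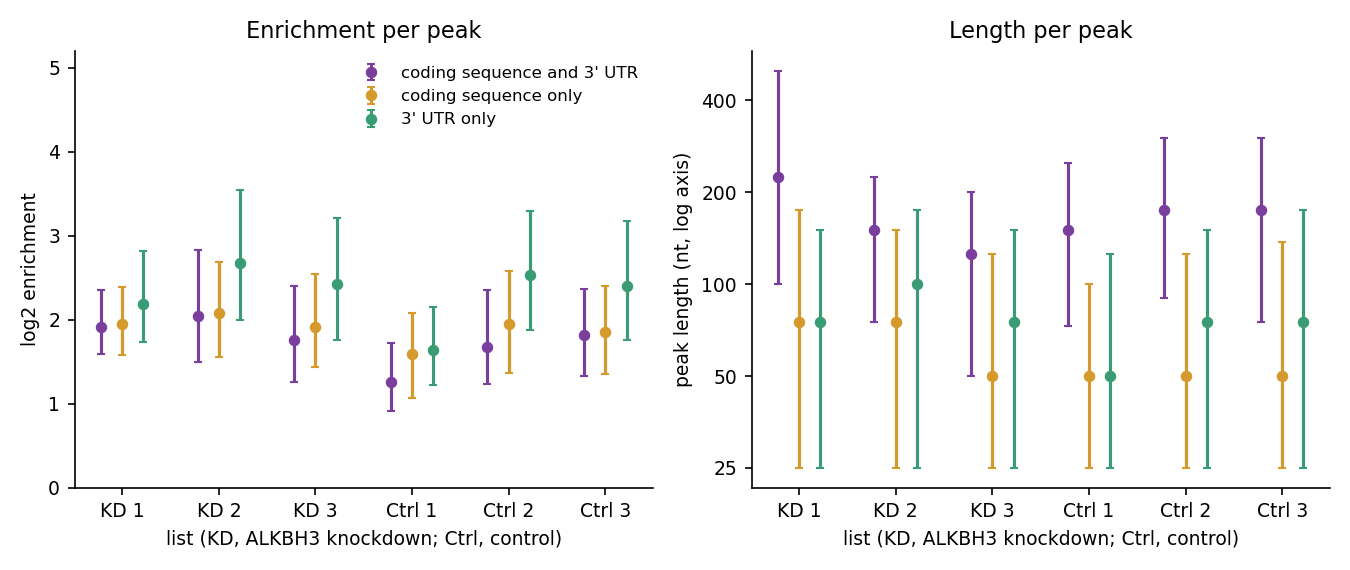
Log2 enrichment (left) and peak length in nt on a log axis (right) of boundary peaks, coding-sequence peaks and 3′ UTR peaks in each ALKBH3 knockdown (KD) and control (Ctrl) list; points are medians and bars run from the lower to the upper quartile of peaks. Boundary peaks have the lowest median enrichment and the largest median length in every list.

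Boundary peaks were also the longer ones, with medians of 225, 150 and 125 nt in knockdown lists and 150, 175 and 175 nt in control lists. Coding-sequence peaks had medians of 75, 75 and 50 nt in knockdown lists and 50 nt in each control list, and 3′ UTR peaks 75, 100 and 75 nt in knockdown lists and 50, 75 and 75 nt in control lists. Length is not independent of the rule, since a longer peak reaches both regions more readily, so the ratios of 2.86 to coding-sequence peaks and 2.23 to 3′ UTR peaks are descriptions. Between the groups the median length did not pass the test: the means were 167 ± 52.0 nt in knockdown lists and 167 ± 14.4 nt in control lists (SD, n = 3 each), with a log2 difference of −0.04 (exact permutation test, p = 1, adjusted p = 1). Without knockdown list 2 this difference was 0.01 and without knockdown list 3 it was 0.14.

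A tail of very long boundary peaks went with knockdown list 1, which held 401 over 1000 nt (10.9%). The other knockdown lists held 35 (3.50%) and 17 (2.47%), and the control lists 23 (4.48%), 37 (6.78%) and 68 (4.64%). The longest of each list, named after their values were seen, were on HMGA2 (10500 nt), SEPT7 (5200 nt) and FBXO3 (5200 nt) in the knockdown lists and on RPL31 (2175 nt), HOGA1 (3422 nt) and FRA10AC1 (4700 nt) in the control lists. Fragments of about 300 nt went into the IP, so such stretches exceed 1 fragment.

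Boundary peaks often ran over a splice junction. More than 1 exon block was present in 43.4%, 26.8% and 23.3% of them in knockdown lists and in 20.1%, 29.9% and 25.3% in control lists. Of 3′ UTR peaks, between 0.139% and 0.628% did so, a gap of 27.8 ± 8.0 percentage points (SD, n = 6 lists) that is a description, since 3′ UTRs seldom hold introns. Coding-sequence peaks had more than 1 block in 38.8%, 33.6% and 28.3% in knockdown lists and in 22.7%, 29.5% and 30.4% in control lists. The difference of boundary from coding-sequence peaks averaged −2.45 ± 4.23 points and did not pass the test (n = 6 lists, 2 of 6 above 0; exact sign-flip permutation test, p = 0.1875, adjusted p = 0.1875).

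The transcripts under boundary peaks were shorter than those under the other peaks. Their median length was 1910.5, 1963 and 1718 nt in knockdown lists and 1317.5, 1391.5 and 1742.75 nt in control lists. Under coding-sequence peaks the medians lay between 2484 and 3227 nt, and under 3′ UTR peaks between 3079 and 4055 nt. A peak on a short mRNA lies closer to its stop codon, so this is a description as well. Chromosome 19 held 10.0% of boundary peaks (8.20% to 13.2% per list), against 6.72% of all peaks (5.52% to 8.09% per list).

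Other peaks on the same gene were common. Of the genes with a boundary peak, 69.6%, 43.2% and 36.0% also had a coding-sequence peak in the same knockdown list, against 25.3%, 26.8% and 50.8% in the control lists. A 3′ UTR peak stood beside it in 42.6%, 34.3% and 30.2% of genes in knockdown lists and in 32.6%, 28.4% and 39.3% in control lists. Neither was present in 19.5%, 40.2% and 46.0% in knockdown lists and in 49.7%, 52.7% and 31.7% in control lists. The longest list of each group had the lowest share of genes without either.

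Boundary peaks of the 6 lists that shared at least 1 base of exon on the same strand were joined into 5315 positions. Of these, 3890 (73.2%) came from 1 list and 1425 (26.8%) from 2 or more. Coding-sequence peaks joined in the same way gave 15% of positions in 2 or more lists, and 3′ UTR peaks 18.4%. Positions in all 6 lists numbered 38 (0.715%) for boundary peaks, 36 (0.124%) for coding-sequence peaks and 46 (0.216%) for 3′ UTR peaks. The difference between the classes was not tested, and longer peaks overlap more readily, so the length given above moves with it.

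**Figure D3:**
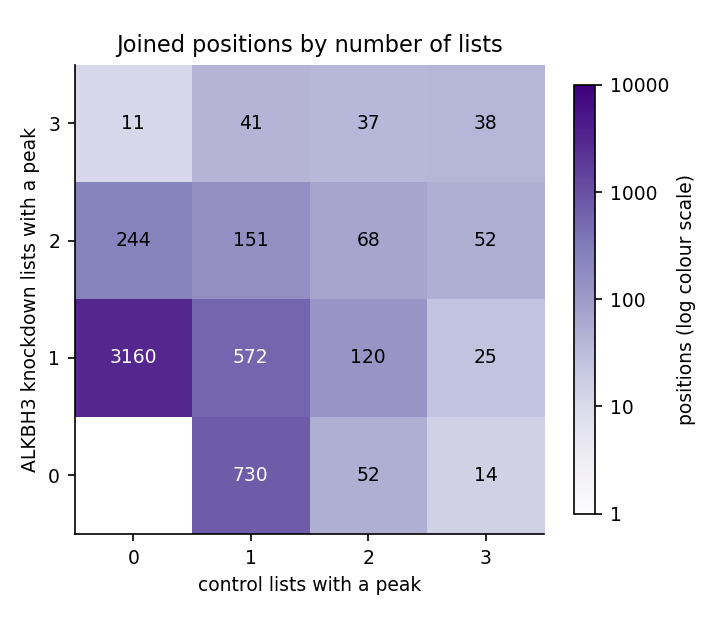
Number of joined boundary-peak positions by how many ALKBH3 knockdown lists (vertical) and how many control lists (horizontal) hold a boundary peak there, on a log colour scale. The largest cell, 3160 positions, is found in 1 knockdown list alone, and 38 positions are in all 6 lists.

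A boundary peak absent from another list was usually not replaced by a peak of another class. Taking each list in turn and looking at the places of its boundary peaks in each other list, no peak of any class was there for a median of 61.4% (23.2% to 88.0% over pairs of lists). A boundary peak was there for a median of 30.1% (6.14% to 52.4%). A 3′ UTR peak alone stood there for 0.582% to 8.38% and a coding-sequence peak alone for 0.549% to 5.84%. Peaks of another class, or of several, made up the remaining 0.501% to 27.3%. The share found again in at least 1 other list was 31.5%, 57.6% and 69.1% for the knockdown lists and 74.9%, 77.1% and 67.5% for the control lists, lowest for the longest list.

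Among the 38 positions in all 6 lists, 7 lay on cytosolic ribosomal protein mRNAs, 2 on nuclear-encoded respiratory chain mRNAs and 5 on the mitochondrial genome. Of all 4190 genes with a boundary peak, 76 and 42 belong to the first 2 groups, and the mitochondrial genome held 0.393% of all boundary peaks. A base common to all 6 lists was found in 36 of the 38 positions, all but those on SORBS3 and RABAC1. In 30 of the 38, every list had a transcript naming both regions. The mitochondrial positions cover 8 genes. Most human mitochondrial mRNAs, though not all, have little or no 3′ UTR, and how the authors' annotation gave these genes that name is not given in the sources used here.

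MT-ND6, a subunit of respiratory complex I, had an identical peak of 525 nt in all 6 lists (hg19 chrM:14149-14673, minus strand). Its annotated transcript is also 525 nt long, so the peak is the whole transcript. The log2 enrichment of MT-ND6 was 3.10, 2.23 and 1.62 in knockdown lists and 1.65, 2.57 and 2.61 in control lists. MT-ND5, the neighbouring complex I gene on the other strand, ended at 14148 in every list with 2.52, 2.45 and 1.36 in knockdown lists and 1.44, 2.21 and 2.72 in control lists. The MT-ND5 peaks were 1737 to 1812 nt long, on an annotated transcript of 1812 nt. The intervals of these genes abut without sharing a base, and the ends that abut are those of the annotated transcripts.

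RPL17, a large-subunit ribosomal protein, had the same interval of 86 nt in all lists (chr18:47014851-47014936, minus strand), with 3.52, 1.57 and 2.18 in knockdown lists and 1.48, 2.15 and 1.97 in control lists. RPL14, also of the large subunit, had 1.72, 1.55 and 1.93 in knockdown lists and 1.59, 1.49 and 1.63 in control lists (around chr3:40503534-40503558). A transcript of RPL14 named both regions in only 3 of the 6 lists. Ribosomal protein genes have many processed pseudogenes, and how reads were shared among copies is not given in the sources used here, so their values are uncertain.

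TRIM28, a corepressor of zinc finger transcription factors, had 1.78, 1.50 and 1.87 in knockdown lists and 1.67, 2.29 and 2.32 in control lists. In knockdown list 2 that peak was chr19:59061844-59062018 on the plus strand, and all 3 of its transcripts named both regions. ACTN1, which cross-links actin filaments, had 1.70, 1.61 and 1.49 in knockdown lists and 1.76, 1.81 and 1.59 in control lists. Its peak was 5700 nt long in knockdown list 1 and 75 to 275 nt in the others. SORBS3, an adaptor at cell adhesions, had 1.86, 1.74 and 1.51 in knockdown lists and 1.49, 1.91 and 2.01 in control lists.

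DCXR, a carbonyl reductase of sugar metabolism, had 2.03, 1.42 and 1.28 in knockdown lists and 1.69, 1.40 and 1.41 in control lists. RABAC1, a receptor for prenylated Rab proteins, had 1.94, 1.56 and 1.58 in knockdown lists and 1.67, 1.93 and 1.98 in control lists. C16orf13 had 1.93, 1.62 and 1.83 in knockdown lists and 1.70, 1.77 and 1.74 in control lists. These 10 positions are those whose lowest within-list percentile was highest, so their height is the rule's and not a finding. Further positions in all lists lay on ENO1, an enzyme of glycolysis, KRT18, an epithelial keratin, FLNA, an actin cross-linker, GSTP1 and PRDX5, enzymes of glutathione conjugation and peroxide removal, and HSP90B1 and CALR, chaperones of the endoplasmic reticulum.

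Every knockdown list and none of the control lists held 11 positions (0.207% of 5315), and among positions joined from all peaks 0.401% did so. These shares are unlike measures, since a place with another class of peak counts as absent only in the first. Of the 5297 positions joined from all peaks that held a boundary peak, 34 (0.642%) had this pattern. Joined alone, coding-sequence peaks gave 0.470% and 3′ UTR peaks 0.155%. The count of 11 became 28 without knockdown list 1, 91 without knockdown list 2, 158 without knockdown list 3 and 44 without control list 3. It was 4 with a reciprocal overlap of 50%, and 0 at equal list length.

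ZNF358, a zinc finger protein, led by rank with 2.12, 2.90 and 3.00 in knockdown lists 1 to 3 (chr19:7584412-7584586 in list 3, plus strand), but no transcript named both regions there and the peak carries the name of an overlapping gene as well. HIST2H2AA3, a histone H2A gene with a near-identical neighbouring copy, had 2.65, 2.03 and 2.37. Both had coding-sequence peaks in all 3 control lists, so the class of peak and not its presence differed. CSTF3, a subunit of the cleavage stimulation factor for mRNA 3′ ends, had 1.73, 1.92 and 2.95 (chr11:33163117-33163191 in list 1, minus strand).

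SLC25A23, a mitochondrial carrier of ATP-Mg and phosphate, had 2.03, 1.85 and 1.68. ARHGAP29, a GTPase-activating protein, had 1.86, 1.55 and 1.74. Neither had a transcript naming both regions, so both peaks are isoform-dependent. HDGFRP3, a protein related to hepatoma-derived growth factor, had 2.43, 1.68 and 1.10, in 3 exon blocks that summed to 100, 150 and 25 nt. AC110084.1 had 2.53, 1.51 and 1.46 in an identical interval that summed to 25 nt.

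SF3B1, a core splicing factor, had 1.71, 1.49 and 1.51. NUDT21, a subunit of cleavage factor Im, had 1.32, 1.66 and 1.36, and TK1, thymidine kinase, had 1.42, 1.54 and 1.00. The TK1 peaks have no base common to all knockdown lists. TIMP3, an inhibitor of metalloproteinases and the last of the 11, had 1.39, 0.92 and 0.89. In 6 of the 11 no control list held any peak at the place: ARHGAP29, CSTF3, HDGFRP3, SLC25A23, AC110084.1 and TIMP3. None of the 11 lay on a cytosolic ribosomal protein or respiratory chain mRNA. Such genes are only 76 and 42 of the 4190 with a boundary peak, so their absence among 11 positions says little.

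The opposite pattern, all 3 control lists and no knockdown list, held 14 positions (0.263% of 5315), and among positions joined from all peaks 0.0701% did so. These too are unlike measures. Of the 5297 positions joined from all peaks that held a boundary peak, 5 (0.0944%) had this pattern. Joined alone, coding-sequence peaks gave 0.0207% and 3′ UTR peaks 0.193%. The count of 14 became 29 without knockdown list 1, 39 without control list 1, 29 without control list 2 and 25 without control list 3. It was 3 at equal list length and 3 among peaks of at least 4-fold enrichment. In 3 of the 14, no knockdown list held any peak at the place, and the other 11 had a peak of some other class in at least 1 knockdown list.

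Those 3 were FRA10AC1, PRPF8 and MRPL50. FRA10AC1 had 3.11, 3.04 and 3.25 in control lists 1 to 3, with lengths of 175, 25 and 4700 nt that do not share 1 common base. PRPF8, the central protein of the spliceosome, had 2.07, 2.81 and 2.09 (chr17:1553923-1553972 in list 2, minus strand), and 1 of its 3 transcripts named both regions. MRPL50, of the mitochondrial ribosome, had 1.41, 1.78 and 1.36.

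The remaining positions had log2 values of at most 1.81. COX4I1, a cytochrome oxidase subunit, had 1.09, 1.33 and 1.41, and ATP5G2, a subunit of the ATP synthase ring, had 1.22, 1.81 and 1.26. TCEB2, elongin B, had 1.13, 1.57 and 1.28, and NACA, a chaperone of nascent chains, had 1.02, 1.58 and 1.01. RPS25 and RPS3A, of the small ribosomal subunit, had 0.91, 1.41 and 1.07 and 0.82, 0.69 and 0.62. HNRNPD, which binds AU-rich elements in 3′ UTRs, had 0.72, 1.17 and 0.93. Also in this pattern were RPL15, RPL32, FTH1 and PPIA.

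**Figure D4:**
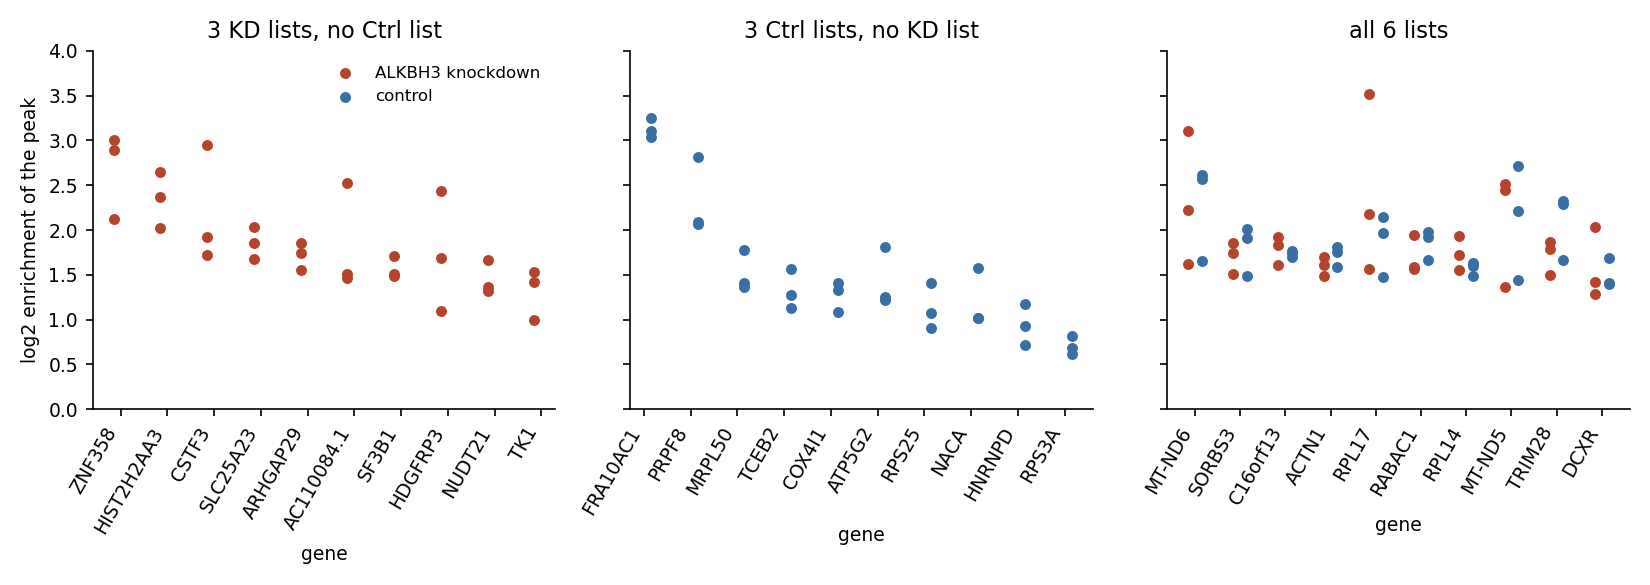
Log2 enrichment (vertical) of the boundary peaks at 10 named positions of each pattern, 1 point per ALKBH3 knockdown or control list: in 3 knockdown and no control list (left), in 3 control and no knockdown list (middle) and in all 6 lists (right). FRA10AC1, with 3.04 to 3.25, and PRPF8, with 2.07 to 2.81, stand above the other positions of the control pattern.

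By gene, 342 of 4190 (8.16%) had a boundary peak in at least 2 more knockdown than control lists and 93 (2.22%) in at least 2 more control than knockdown lists. Over all 10226 genes and any class of peak, the same rule gave 20.1% and 1.76%. The gene groups below are counted against these shares, with no test and no matching for transcript length.

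Cytosolic ribosomal protein genes, which code for the proteins of the translating ribosome, had a boundary peak in 36, 34 and 45 genes in knockdown lists and in 62, 71 and 61 in control lists. The groups do not overlap in this count. Of all genes with any peak in a list, 35.9%, 14.7% and 14.3% had a boundary peak in knockdown lists and 17.1%, 17.5% and 21.5% in control lists. Of the 79 with any peak, 76 (96.2%, against 41.0% of all genes with any peak) had a boundary peak in some list. The transcripts under these peaks were short, with medians of 692 to 762.75 nt per list, against 1317.5 to 1963 nt under all boundary peaks. The part of transcript length in these shares was not tested. In at least 2 more control than knockdown lists stood 25 of these 76 (32.9%, against 2.22% of all genes with a boundary peak), and in at least 2 more knockdown lists 1 of 76, RPL3 (against 8.16%). The class of peak moves with this count in knockdown list 1: there 43 genes had no boundary peak but a longer one that also named the 5′ UTR, while knockdown lists 2 and 3 had 1 such gene each and control lists 1 to 3 had 1, 4 and 10.

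Knockdown lists 2 and 3 held few such long peaks. There 24 and 18 of the ribosomal protein genes had other peaks only, against 0 in knockdown list 1 and 11, 2 and 6 in control lists. No peak at all was found in 20 and 15 genes in these lists, against 0 in knockdown list 1 and 5, 2 and 2 in control lists. Of the 25 genes, 25, 16 and 17 had a peak of some class in knockdown lists 1 to 3, and 5 were in at least 2 more control lists by any peak. Depth, which is unknown here, and its part in the result were not tested.

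The ribosomal boundary peaks were weak for their lists. Their median log2 enrichment was 1.56, 0.67 and 0.73 in knockdown lists and 0.79, 1.05 and 0.91 in control lists, and their median percentile lay between 1.51 and 21.6. Their median length was 1018, 182.5 and 196 nt in knockdown lists and 175, 412 and 518.5 nt in control lists. RPS12 had 1.29 in knockdown list 2 and 1.39, 1.04 and 1.01 in the control lists, and RPS16 had 0.57 in knockdown list 2 and 0.80, 1.09 and 0.73 in the control lists. RPL3 had 1.23, 0.60 and 0.63 in knockdown lists 1 to 3, against 0.92 in control list 2.

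**Figure D5:**
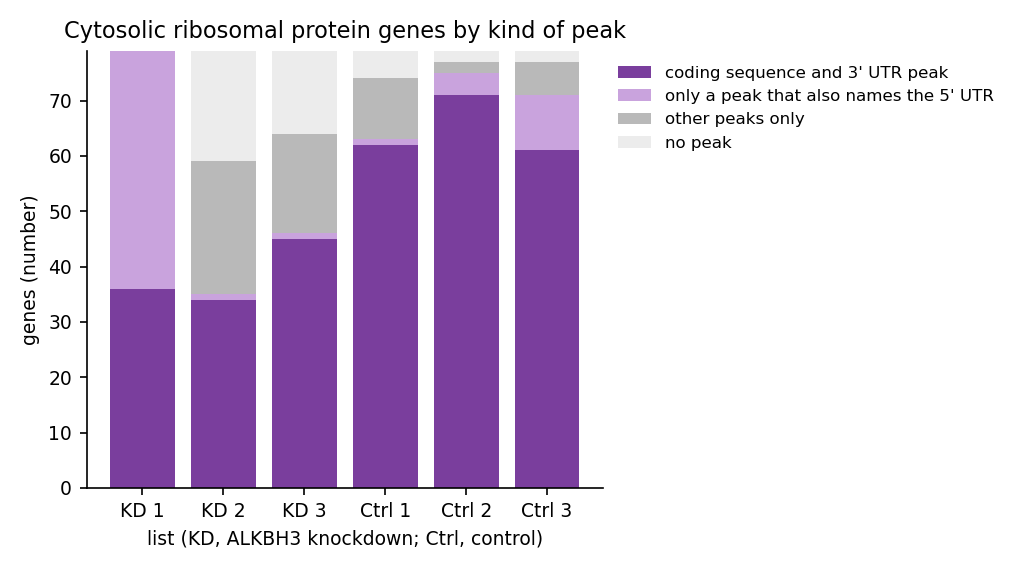
Number of the 79 cytosolic ribosomal protein genes by the kind of peak they had in each ALKBH3 knockdown (KD) and control (Ctrl) list. Boundary peaks are on 34 to 45 genes in knockdown lists and 61 to 71 in control lists, and in knockdown list 1 another 43 genes had only a longer peak that also names the 5′ UTR.

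Of 47 nuclear genes of oxidative phosphorylation with any peak, 42 (89.4%, against 41.0% of all genes with any peak) had a boundary peak. These were 32, 11 and 8 genes in knockdown lists and 22, 19 and 21 in control lists, so the groups overlap. Here too the transcripts were short, with medians of 705 to 813.5 nt per list, and the part of their length was not tested. In at least 2 more control lists stood 6 of 42 (14.3%, against 2.22% of all genes with a boundary peak), COX4I1, COX7A2, COX8A, ATP5G2, ATP5G3 and ATP5J2. In at least 2 more knockdown lists stood 4 of 42 (9.52%, near the 8.16% of all such genes), among them SDHA, COX5A and ATP5F1. COX8A, a cytochrome oxidase subunit, had 1.69 in knockdown list 1 and 1.57, 0.98 and 1.14 in the control lists. COX5A, of the same complex, had 1.35 and 3.49 in knockdown lists 1 and 2.

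Of 32 ferroptosis genes with any peak, 14 (43.8%) had a boundary peak, near the 41.0% of all genes with any peak. They were 11, 5 and 5 genes in knockdown lists and 3, 3 and 8 in control lists. In at least 2 more knockdown lists was TFRC (7.14% of the 14, against 8.16% of all genes with a boundary peak). In at least 2 more control lists was FTH1 (7.14%, against 2.22%). GPX4, the selenoenzyme that reduces lipid peroxides, had 1.16 and 1.32 in knockdown lists 2 and 3 and 1.26, 1.64 and 1.52 in control lists 1 to 3. All of these peaks ended at chr19:1106787, and those of knockdown list 3 and control list 1 had the same interval, chr19:1106544-1106787. Knockdown list 1 had instead a single peak of 1344 nt over all regions (chr19:1104111-1106787), with 1.25. The end of the GPX4 mRNA was thus enriched in all 6 lists.

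FTH1, the heavy chain of the iron store ferritin, had a peak at the end of its coding sequence in control lists 1 to 3 with 0.68, 0.60 and 0.92 (chr11:61732022-61732246 in list 1). Knockdown list 1 covered that place with a peak over all regions of 1350 nt and 1.75, knockdown list 3 with a 3′ UTR peak of 0.74, and knockdown list 2 had none there. A separate boundary peak of knockdown list 1, with 3.01, lay elsewhere and rested on different isoforms. TFRC, the transferrin receptor, had 1.50, 1.25 and 1.17 in knockdown lists 1 to 3, against 1.17 in control list 3, and none of its 5 transcripts named both regions in any of them. Those peaks were not at 1 common place. That of knockdown list 2 (chr3:195785184-195785233) lay outside the span of that of list 1 (chr3:195789724-195792428). The control peak (chr3:195789724-195789773) began at the same base as that of knockdown list 1 and did not reach that of list 3 (chr3:195791240-195791264).

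ACSL4, which loads polyunsaturated fatty acids into phospholipids, had a boundary peak in knockdown list 1 alone, with 2.11 (chrX:108887141-108887315, all 3 transcripts naming both regions). NFE2L2, the transcription factor NRF2, had 4 in the same list with a highest value of 1.60, and none of the 9 transcripts of that peak named both regions. SLC7A11, the cystine antiporter that erastin blocks, and AIFM2, a reductase that protects lipids from peroxidation, had no boundary peak in any list.

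Glutathione genes and NRF2 targets had a boundary peak in 17 of 25 (68%, against 41.0% of all genes with any peak). These were 14, 5 and 5 genes in knockdown lists and 8, 4 and 7 in control lists. GSTP1 and PRDX5 were among those in all 6 lists. PRDX4, a peroxidase of the endoplasmic reticulum, had 1.38 in knockdown list 1 and 1.99, 1.91 and 1.78 in control lists 1 to 3. GSTO1, an omega-class glutathione transferase, had 1.77 and 1.88 in control lists 1 and 3. SRXN1, which repairs oxidised peroxiredoxins, had 1.85 and 1.22 in knockdown lists 1 and 3. PRDX4 and GSTO1 were in at least 2 more control lists (11.8% of the 17, against 2.22% of all genes with a boundary peak). In at least 2 more knockdown lists was SRXN1 (5.88%, against 8.16%).

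Genes that act at the stop codon gave small counts. Of 12 translation termination and recycling genes with any peak, 6 (50%, against 41.0% of all genes with any peak) had a boundary peak, in 4, 0 and 0 genes in knockdown lists and 0, 2 and 0 in control lists. Nonsense-mediated decay genes, which survey premature stop codons, had one in 8 of 16 (50%), and genes known for stop codon readthrough in 4 of 5 (80%). Selenoprotein genes, whose reading frames decode a UGA stop as selenocysteine, had one in 8 of 20 (40%), and of these GPX4 and GPX1 had one in at least 4 lists. GPX1, the cytosolic glutathione peroxidase, had 1.84, 1.35 and 1.08 in knockdown lists and 1.89 and 1.20 in control lists 1 and 3. None of these 4 groups had a gene in at least 2 more lists of either kind.

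The writers and erasers of m1A had a boundary peak in 6 of 12 genes (50%, against 41.0% of all genes with any peak). These were 5, 0 and 0 in knockdown lists and 0, 2 and 1 in control lists. The m6A machinery had one in 4 of 15 (26.7%). Translation initiation and elongation factors had one in 28 of 33 (84.8%). In at least 2 more control lists were EEF1A1, EEF1B2, EIF1 and EIF4A1 (14.3% of the 28, against 2.22% of all genes with a boundary peak). In at least 2 more knockdown lists was EIF2S1 (3.57%, against 8.16%). EIF2S1 had 1.49 and 1.69 in knockdown lists 1 and 2, each from 1 of 2 boundary peaks. Those peaks lay apart (chr14:67849210-67849398 and chr14:67850032-67850206). EEF1B2, the exchange factor of elongation factor 1, had 1.60 in knockdown list 1 and 1.45, 2.04 and 1.68 in control lists 1 to 3. EEF1A1, the elongation factor that carries aminoacyl-tRNA, had only 0.33 and 0.26 in control lists 2 and 3.

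Stress and chaperone genes gave single differences. ATF4, the transcription factor of the integrated stress response, had the same interval, chr22:39918527-39918691, in control lists 2 and 3, with 1.13 and 0.93. Its targets DDIT3 and PHGDH had boundary peaks in knockdown lists only. DDIT3 had 1.88 and 1.66 in knockdown lists 1 and 2, and PHGDH 1.36 and 0.88 in knockdown lists 1 and 3. In their group, 2 of 11 genes were in at least 2 more knockdown lists (18.2%, against 8.16% of all genes with a boundary peak). In at least 2 more control lists was 1 of 11, ATF4 (9.09%, against 2.22%). Each rests on 2 lists of unknown depth. PPIA, a prolyl isomerase, had 1.19, 0.81 and 0.42 in control lists 1 to 3. It was the only chaperone in at least 2 more control lists (3.85% of 26, against 2.22%). The group of ATF4 and unfolded protein response genes had a boundary peak in 11 of 18 (61.1%), and chaperones in 26 of 32 (81.25%), against 41.0% of all genes with any peak.

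Of the remaining groups, glycolysis had a boundary peak in 13 of 17 genes (76.5%, against 41.0% of all genes with any peak), with ENO1 in all 6 lists. The glucose transporter SLC2A1 was in at least 2 more knockdown lists (7.69% of the 13, against 8.16%), at 1.47 and 1.49 in lists 1 and 3. Those peaks lay apart (chr1:43393376-43408988 and chr1:43392677-43392851). The proteasome had one in 27 of 31 (87.1%), with PSMD8, a regulatory subunit, at 1.50 and 1.27 in control lists 2 and 3. PSMD8 was the only one in at least 2 more control lists (3.70% of the 27, against 2.22%). Cell cycle genes had one in 15 of 28 (53.6%) and replication-dependent histones in 5 of 13 (38.5%). KRT8, the partner of KRT18 in simple epithelia, had the highest values of any gene named by the rule, 4.12, 5.66 and 4.07 in knockdown lists and 5.53 in control list 3, and all 4 of its transcripts named both regions in each (chr12:53291027-53291326 in knockdown list 1 and control list 3).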

How the data were processed

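m1A IP and input mRNA libraries were made with a stranded kit from 3 ALKBH3 knockdown and 3 control samples, per the labels' protocols; sequence reads were not used here. FastQC 0.11.7, Trimmomatic 0.32, HISAT2 2.1.0 and hg19 are named, per the submitters' processing notes. For each IP sample the authors deposited a separate peak list, with 1 entry per transcript; the caller is not given in the sources used here. Enrichment is in log2 fold change units (per the file headers), whose sides are not named and which are read as IP over input because every value is above 0. The deposited p-value of every peak was at most 1.00e-10, and no test used it. The lists hold no counts, so depth is unknown.

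Entries with the same chromosome, start and end were taken as 1 peak, and length was the sum of exon blocks. Positions are printed counted from 1. A current symbol matched 3838 of the 4190 genes with such a peak (91.6%). Lists were compared by two-sided exact permutation tests of 3 against 3 (5 results) and peak classes within lists by exact sign-flip tests over 6 lists (6 results), each family with Benjamini-Hochberg adjustment, in Python 3.11.15 with SciPy 1.17.1. The code was tested on simulated data with known answers. Shares have Wilson 95% intervals.

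Named genes are the 10 positions of each pattern that ranked highest by their lowest percentile of enrichment in any list, up to 4 members of each of 18 gene groups and direction with a boundary peak in at least 2 more lists of one group, stop codon and selenoprotein genes in at least 4 lists, and 8 genes of ferroptosis and m1A; other names were chosen after their values were seen, and some members are not reported here by name. The members, gene groups and tests were chosen with earlier results of these data known. Alternatives were peaks of at least 4-fold enrichment, equal list length (the 4894 most enriched peaks), members for which every transcript named both regions, peaks with 1 gene name, each list left out, replicate number as a block, a reciprocal overlap of 50% and, added after the data were seen, the mitochondrial genome left out. No sequence is printed, since no hg19 genome was used here.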

Additional observations from a re-analysis of the deposited data

How the results depend on the processing

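With 3 lists against 3, or fewer, no comparison between the groups could pass its test under any alternative, so their p-values say nothing of stability. Among peaks of at least 4-fold enrichment, the difference in share turned to 0.80 percentage points, that in log2 length to 0.11, that in both regions on 1 transcript to 1.55 points, and the enrichment difference to coding-sequence peaks to 0.0121. There the difference in the share with more than 1 exon block to coding-sequence peaks was −4.34 points and passed (exact sign-flip permutation test, adjusted p = 0.0375), and positions in all lists of one group alone numbered 3 for knockdown and 3 for control. At equal list length the log2 differences in peaks and genes turned to −0.43 and −0.45, the enrichment difference to coding-sequence peaks was −0.0755 and no longer passed, and such positions numbered 0 and 3; the difference in share was −2.57 points and that in both regions on 1 transcript −10.2 points. The enrichment difference to 3′ UTR peaks was −0.27 under the first of these alternatives and −0.37 under the second, and passed in both. Both select peaks by enrichment, so they are no independent check of enrichment differences. With members for which every transcript named both regions, the log2 length difference turned to 0.0467 and the positions numbered 4 and 8; the share with both on 1 transcript is then fixed and was not computed. A reciprocal overlap of 50% left 4 knockdown positions. The cause of these shifts was not tested. With 1 gene name per peak, or without the mitochondrial genome, no call or direction changed.

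Leaving out 1 list gave −0.17 to −0.11 for enrichment against coding-sequence peaks and −0.62 to −0.51 against 3′ UTR peaks, 1.46 to 1.62 and 1.07 to 1.27 for log2 length against them, and 24.8 to 29.4 points for exon blocks against 3′ UTR peaks. With 5 lists the smallest p is 0.0625, so none could pass. Between groups it gave 0.16 to 1.37 for log2 peaks and 0.14 to 1.27 for log2 genes, both lowest without knockdown list 1, −2.47 to −0.99 points for the share, −7.53 to −4.14 points for both regions on 1 transcript, −0.28 to 0.14 for log2 length, turned without knockdown list 2 (0.01) or 3 (0.14), 13 to 158 knockdown positions and 17 to 39 control positions. The replicate numbers were not taken as pairs in the main tests. Deviations of same-numbered lists correlated at 0.05, −0.02 and 0.08, and those of differently numbered lists at −0.09 to 0.06. Values this small cannot decide whether same-numbered samples are paired. With the number as a block the differences stayed at 0.87, −1.56, 0.81, −0.04 and −5.53 and the adjusted p lay between 0.9375 and 1 (exact permutation, smallest p 0.25). Unknown depth limits every absence of a peak.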

Other observations

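Haemoglobin mRNAs, which belong to red cell precursors and not to an epithelial line, gave the most enriched boundary peaks of 4 of the 6 lists. These were HBA2 at 9.68 and HBA1 at 10.2 on the log2 scale in knockdown lists 1 and 3, and HBA1 at 9.65 and HBB at 13.2 in control lists 2 and 3. In the other lists the highest were RFESD at 7.02 in knockdown list 2 and TGFB1, a growth factor, at 3.98 in control list 1, where no haemoglobin gene had a peak of any class. HBA1 and HBA2 are close copies, and how reads were divided between them is not given in the sources used here, so their separate values are uncertain. The HBA1 and HBA2 peaks of any class lay at or above the 99.9th percentile of enrichment in each of the 5 lists, chosen after their values were seen. In knockdown list 2 their peaks, at 10.8 and 10.4, also named the 5′ UTR and so were not boundary peaks. HBE1, another haemoglobin gene, had 5′ UTR peaks at the 87.5th percentile in knockdown list 1 and the 74.9th in control list 3. What they mean in these lists was not tested.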
